A study of Mus musculus with 6 samples.

Results

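Transcripts of 10 genes that mark blood vessel endothelium were followed in LSK cells of mouse bone marrow, in 3 Asxl2-/- and 3 wild-type libraries. The genes were picked by symbol: Cdh5, Pecam1, Kdr, Flt1, Tie1, Eng, Emcn, Plvap, Sox17 and Sox18. They are 10 of the 24063 gene symbols in the count files. A filter on low counts kept 14145 genes for testing and retained 9 of the 10, all but Sox17, which had at most 1 count in a library. LSK cells are the marrow fraction sorted as lineage-negative, Sca-1-positive and c-Kit-positive, in which blood stem cells and early progenitors are found. The study states that the sequenced LSK cells were also positive for CD45.2, a form of the surface protein CD45. The mice were C57BL/6 and carried Mx1-cre, a Cre recombinase under an interferon-inducible promoter that is active in blood cells and also in other tissues. All of them, controls included, received pIpC, a double-stranded RNA that switches this promoter on, and LSK cells were sorted 4 weeks later. In the Asxl2-/- group both Asxl2 alleles were floxed around exon 11, and the control group, called wild type here, had Mx1-cre alone. The labels give neither age nor sex. The study describes the 3 libraries of a group as biological replicates, while the labels do not say which animals each one came from.

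The deposited values were counts of reads of 2 kinds, and this bears on each comparison below. Asxl2-/- replicates 1 and 3 and wild-type replicate 2 had 1 count per transcript (gene-count files), and the other three libraries had 1 count per exon (exon-count files), which were summed over the exons of 1 transcript per gene. A spliced read can enter such a sum more than once, so the kind of file was a covariate in the test. Totals were 25528540 to 29136012 in the gene-count files and 53147729 to 55032075 in the exon-count files. Levels are given in CPM, counts per 1000000 of the normalised library size, on which 1 count was worth 0.0188 to 0.0355 CPM. A level of 0 therefore allows up to 0.0564 to 0.106 CPM (3 counts), a limit that covers counting error only. The targeted exon 11 took 0.583% of the Asxl2 exon counts in Asxl2-/- replicate 2 (28 of 4804, Wilson 95% interval 0.404 to 0.841) and 10.3% (457 of 4433, 9.45 to 11.2) and 11.99% (492 of 4105, 11.03 to 13.01) in wild-type replicates 1 and 3. Exon 11 cannot be read in the gene-count files. The groups also differed in sex-linked transcripts. Xist had 49540 to 66689 counts in the Asxl2-/- libraries and 590 to 3194 in the wild-type libraries, and each of 4 Y-linked genes had at most 2 counts in the former and at least 1026 in the latter. Genotype and sex cannot be told apart in any difference given here. The gate genes Kit (279.96 to 431 CPM) and Ptprc (235 to 288 CPM, encoding CD45) were high in all 6 libraries. Ly6a, which encodes Sca-1, was at 52.6 to 69.1 CPM in Asxl2-/- cells and at 40.5, 259.8 and 148 CPM in wild-type replicates 1, 2 and 3.

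Endothelial cells line the blood vessels and, in the marrow, the sinusoids through which blood cells leave. Blood stem cells arise in the embryo from a specialised endothelium, and several surface proteins of endothelial cells remain on adult stem cells and on megakaryocytes, among them the products of Pecam1, Eng and Emcn. The 10 genes fall into 3 roles. Cdh5 (VE-cadherin), Pecam1 (CD31), Emcn (endomucin) and Plvap are surface proteins, of which Cdh5 and Pecam1 join neighbouring cells, Emcn is a sialomucin and Plvap forms the diaphragms of fenestrae and caveolae. Kdr (VEGF receptor 2), Flt1 (VEGF receptor 1), Tie1 (an orphan partner of the angiopoietin receptor Tek) and Eng (endoglin, a co-receptor for BMP9 and TGF-beta) are receptors. Sox17 and Sox18 are SOXF transcription factors of vessel formation.

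Start sites of 5 of the 10 genes (Kdr, Flt1, Tie1, Eng and Emcn) had a promoter sequence in the RefSeq table on GRCm38.p6, the assembly that mm10 names. The 250 bases before the start are shown for Tie1, the receptor, and Emcn, the mucin, whose levels differed most between genotypes among these 5, and for Eng, the most abundant gene, for which no difference was detected. They lie at chr4:118489850-118490099 on the minus strand, chr3:137340828-137341077 on the plus strand and chr2:32646345-32646594 on the plus strand, each ending at the base before the first exon of the transcript counted here. Capitals mark GGAA or its reverse complement TTCC, the core bound by ETS factors, which act in both endothelium and blood stem cells.
Tie1: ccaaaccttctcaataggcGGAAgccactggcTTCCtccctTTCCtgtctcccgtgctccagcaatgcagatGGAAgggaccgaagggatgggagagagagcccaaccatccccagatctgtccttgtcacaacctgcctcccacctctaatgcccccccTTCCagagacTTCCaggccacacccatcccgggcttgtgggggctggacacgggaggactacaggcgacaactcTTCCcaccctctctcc
Emcn: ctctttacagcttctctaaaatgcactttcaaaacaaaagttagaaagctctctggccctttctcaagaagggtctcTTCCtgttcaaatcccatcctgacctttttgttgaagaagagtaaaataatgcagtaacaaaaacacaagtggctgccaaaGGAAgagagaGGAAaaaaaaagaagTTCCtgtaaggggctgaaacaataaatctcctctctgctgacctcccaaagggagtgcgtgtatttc
Eng: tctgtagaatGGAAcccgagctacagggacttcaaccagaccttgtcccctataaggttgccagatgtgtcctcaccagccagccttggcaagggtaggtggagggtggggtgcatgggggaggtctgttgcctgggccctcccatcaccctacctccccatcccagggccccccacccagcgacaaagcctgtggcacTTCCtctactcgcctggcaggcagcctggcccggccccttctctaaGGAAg
Over both strands, the core occurred 7 times in the Tie1 window, 4 times each in those of Emcn, Kdr and Flt1, and 3 times in that of Eng. Of the 32851 RefSeq windows of this length, 93.4% held at least 1 and the median was 3. At least 7 were found in 3.82% of windows, at least 4 in 33.4% and at least 3 in 54.7%. On either strand, the RUNX motif TGTGGT was in none of the 5 windows and in 14.0% of all windows. The same held for GATAA, which GATA factors bind, with 22.6% of all windows. A match is a run of letters and not a site shown to be bound.

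The 10 genes were far from equally abundant in LSK cells. Per kilobase of transcript, which is the scale on which genes can be compared, and within the 3 gene-count libraries, Eng stood first at 33.0, 39.7 and 33.9 CPM per kb in Asxl2-/- replicates 1 and 3 and wild-type replicate 2. Pecam1 followed at 30.7, 23.3 and 27.8 CPM per kb in the same order. These 2 genes lay between the 72.4th and 84.6th percentiles of all tested genes in these libraries. Tie1 was at 13.5, 9.12 and 4.36 CPM per kb, Plvap at 4.82, 7.73 and 2.72, and Emcn at 2.67, 1.81 and 0.547. The levels of Tie1 and Plvap overlapped across libraries, as did those of Emcn and Sox18, while those of Plvap and Emcn were apart by a narrow margin. Sox18 was at 0.855, 0.762 and 0.0858 CPM per kb. Kdr (0.0776 to 0.208), Flt1 (0.0898 to 0.420) and Cdh5 (0.0871 to 0.240) shared the lowest tier of the tested genes, with ranges that overlapped one another and that of Sox18, and lay between the 1.72nd and 12.9th percentiles. Sox17 (NM_011441, chr1:4490928-4497354, 5 exons on mm10) had 1 count in Asxl2-/- replicate 1 and in wild-type replicates 1 and 3, and 0 in the other three libraries.

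**Figure D1:**
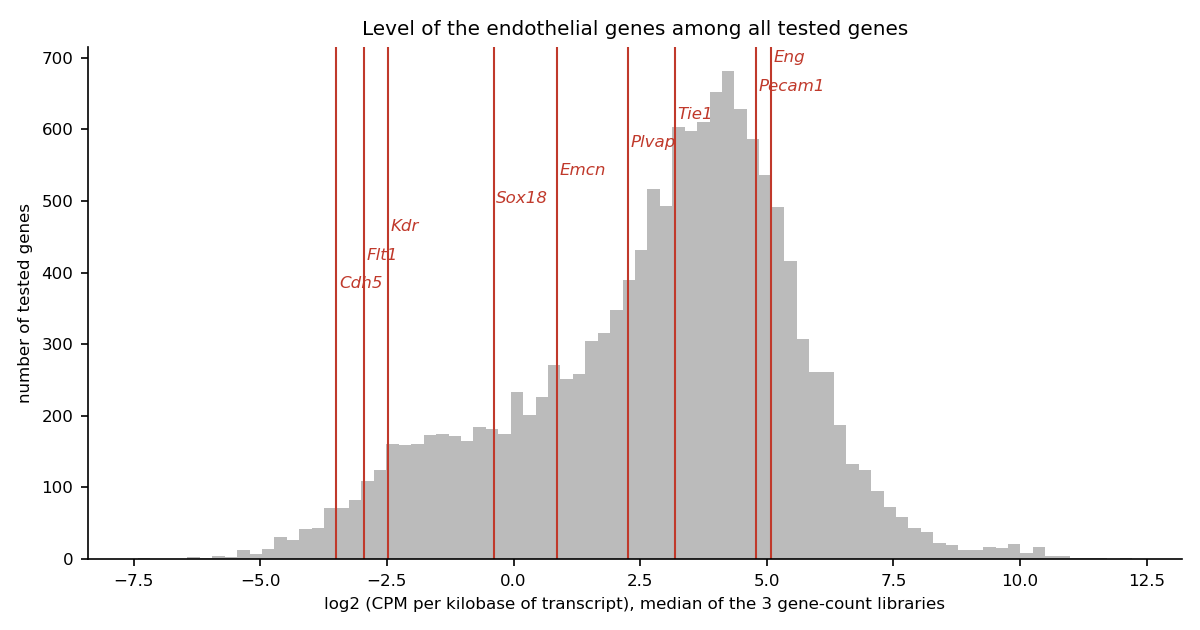
Grey bars give the number of tested genes by level, as log2 of CPM per kilobase of transcript (x axis, median of the 3 gene-count libraries), and each red line marks 1 of the 9 tested endothelial genes. Eng (33.9 CPM per kb) and Pecam1 (27.8) sit in the upper part of the distribution, while Kdr (0.178), Flt1 (0.130) and Cdh5 (0.0884) sit in its lower tail.

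Both the surface proteins and the receptors were spread over this range, while both SOXF genes were low. Pecam1 and Eng, the abundant pair, are genes that blood cells also transcribe, and Cdh5 and Kdr, in the lowest tier, are among the genes by which endothelial cells are usually identified. A separate list of 20 genes, drawn up as endothelium-restricted, was as uneven. That is only the name of the list, and whether blood cells in the gate transcribe its genes was not tested. The adhesion receptor Eltd1 was at 131 to 399 CPM, Myct1 at 12.2 to 51.9 and Robo4 at 1.01 to 10.5 CPM, while 7 of the 20 had at most 10 counts in every library, among them Cldn5, the tight junction protein of vessels, with 0 to 3 and Clec14a with 1 to 8. Sox7, the remaining SOXF gene, had 0 or 1 count. These examples of the lists were taken after their values had been seen. In bulk RNA, a few cells with a high level and many cells with a low level cannot be told apart.

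Counts by exon were available in 3 libraries and showed over which parts of each transcript the reads lay. Tie1, Pecam1, Eng, Emcn, Plvap and Sox18 had counts in every exon in Asxl2-/- replicate 2 and in wild-type replicates 1 and 3. For Tie1, counts were spread over all 23 exons, and no exon took more than 6.90% of them. The trace genes were patchier. Cdh5 had counts in 10, 8 and 1 of its 12 exons in these libraries. Its last exon, which has 2022 of the 3986 bases, held 13 of 31, 11 of 24 and 6 of 6 counts. Kdr had counts in 15, 22 and 11 of 30 exons, and Flt1 in 24, 11 and 23 of 30. Exon 14 of Pecam1 (chr11:106671742-106671798, 57 bases), which the other listed transcript of the gene lacks, held 86 of 4913 counts in Asxl2-/- replicate 2, and 83 of 3677 and 66 of 3127 in wild-type replicates 1 and 3. Exon 5 of Emcn (chr3:137403984-137404022, 39 bases), likewise absent from its other transcript, held 12 of 269, 8 of 134 and 2 of 64 counts, so both exons were read in each of the 3 libraries. Of the 10 transcripts only that of Eng shared bases with another gene in the files, 61 of 3572 with Fpgs, and the libraries were not stranded.

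Flt1 is known to give a soluble receptor whose transcript ends in the intron after exon 13. Exons 1 to 13, which hold 35.4% of the bases of the transcript, took 44.6% of the Flt1 counts in Asxl2-/- replicate 2 (25 of 56, Wilson 95% interval 32.4 to 57.6). They took 50% in wild-type replicate 1 (12 of 24, 31.4 to 68.6) and 63.4% in wild-type replicate 3 (45 of 71, 51.8 to 73.6). The intervals overlap, and the libraries were not tested against each other. The share of bases is not the share expected of such counts, since a spliced read can be counted in more than 1 exon. The last exon of Eng, with 1474 of 3572 bases, took only 16.5% to 17.5% of the Eng counts. Whether a soluble Flt1 transcript was present was not tested. This split of the exons was chosen after the counts had been seen, and with 1 Asxl2-/- library it has no replicate check.

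**Figure D2:**
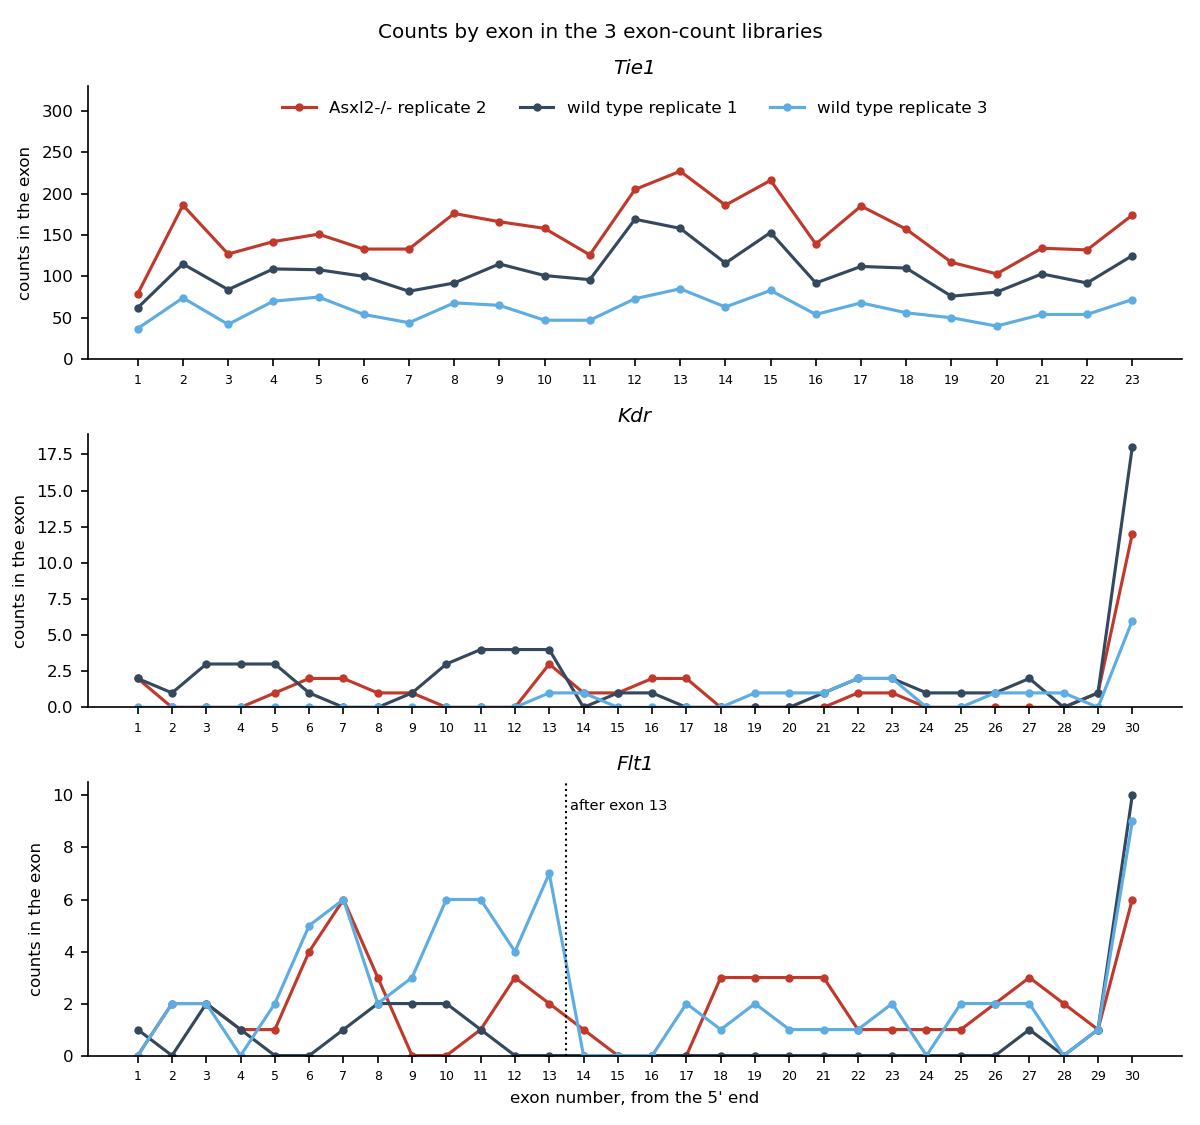
Counts in each exon (y axis) from the 5' end (x axis) of Tie1, Kdr and Flt1 in the 3 exon-count libraries, 1 line per library, with a dotted line after exon 13 of Flt1. Tie1 has counts in all 23 exons of every library, while Kdr and Flt1 rest on 18 to 71 counts per library, with the last of their 30 exons holding the highest count or, for Flt1 in Asxl2-/- replicate 2, sharing it with another exon. This last exon is also the longest, with 1349 of 5451 bases in Kdr and 2211 of 6280 in Flt1.

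Whether loss of Asxl2 altered these genes was then compared. Sox18, Emcn, Tie1 and Plvap were the 4 genes with an unadjusted p under 0.05, and all 4 were higher in Asxl2-/- cells, by 5.54-fold, 3.17-fold, 2.12-fold and 1.68-fold. For Eng and Pecam1, the abundant pair, no difference was detected, and the trace genes Kdr, Flt1 and Cdh5 had intervals too wide to place. None of the 9 tested genes passed the threshold, an adjusted p of 0.05 over all 14145 genes in the quasi-likelihood test of edgeR, although Sox18 missed it narrowly.

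Coordinates are those of the files on mm10. Sox18 (NM_009236, chr2:181669837-181671640, 2 exons) was at 1.38, 1.88 and 1.23 CPM in Asxl2-/- replicates 1, 2 and 3 and at 0.556, 0.139 and 0.359 CPM in wild-type replicates 1, 2 and 3. The groups did not overlap, and the lowest Asxl2-/- library was well above the highest wild-type library. These levels rest on 35 to 100 counts in Asxl2-/- cells and on 4 to 29 in wild-type cells. The mean was 0.77 ± 0.27 log2 CPM in Asxl2-/- cells and -1.63 ± 0.38 in wild-type cells (SD, n = 3 each, kind of file removed), a log2 fold change of 2.47 (SE 0.44, 95% interval 1.41 to 3.53, edgeR adjusted p = 0.0506). In the gene-count files alone the difference was 3.18, and in the exon-count files alone it was 2.03. Sox18 reached the level of the low-count filter in all 3 Asxl2-/- libraries and in 2 of the wild-type libraries.

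Emcn (NM_001163522, chr3:137341078-137431069, 12 exons) was at 3.90, 5.05 and 2.64 CPM in Asxl2-/- replicates 1, 2 and 3 and at 2.57, 0.799 and 1.35 CPM in wild-type replicates 1, 2 and 3. The groups did not overlap, but Asxl2-/- replicate 3 and wild-type replicate 1 were close to each other. The means were 2.07 ± 0.32 and 0.40 ± 0.48 log2 CPM (SD, n = 3 each). Its log2 fold change was 1.66 (SE 0.38, 95% interval 0.74 to 2.59, edgeR adjusted p = 0.0740), and it was 2.01 in the gene-count files alone and 1.36 in the exon-count files alone. Emcn marks sinusoidal and other vein-side endothelium and also long-term blood stem cells.

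Tie1 (NM_011587, chr4:118471191-118489849, 23 exons) was at 52.5, 66.7 and 35.4 CPM in Asxl2-/- replicates 1, 2 and 3 and at 47.0, 16.9 and 29.0 CPM in wild-type replicates 1, 2 and 3. The groups overlapped, since wild-type replicate 1 was above Asxl2-/- replicate 3. Within each kind of file the Asxl2-/- level was the higher, by 1.36 and 0.81 on the log2 scale. Tie1 was measured with 487 to 3552 counts per library, so counting error was small beside its spread. The means were 5.79 ± 0.32 and 4.69 ± 0.38 log2 CPM (SD, n = 3 each). Its log2 fold change was 1.09 (SE 0.27, 95% interval 0.43 to 1.75, edgeR adjusted p = 0.0837).

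Plvap (NM_032398, chr8:71497753-71511769, 6 exons) was at 9.72, 11.7 and 15.6 CPM in Asxl2-/- replicates 1, 2 and 3 and at 9.06, 5.49 and 9.70 CPM in wild-type replicates 1, 2 and 3. The groups met at their edges, where Asxl2-/- replicate 1 and wild-type replicate 3 were nearly equal. The means were 3.66 ± 0.42 and 2.92 ± 0.25 log2 CPM (SD, n = 3 each). Its log2 fold change was 0.75 (SE 0.29, 95% interval 0.05 to 1.45, edgeR adjusted p = 0.162), which separated into 1.20 in gene-count files and 0.33 in exon-count files.

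For Eng (NM_001146350, chr2:32646595-32682669, 14 exons) the levels were 118, 152 and 142 CPM in Asxl2-/- replicates 1, 2 and 3 and 162, 121 and 187 CPM in wild-type replicates 1, 2 and 3. The groups overlapped over most of their range, with means of 7.16 ± 0.16 and 7.21 ± 0.13 log2 CPM (SD, n = 3 each). The log2 fold change was -0.05 (95% interval -0.36 to 0.26, edgeR adjusted p = 0.834). For Pecam1 (NM_008816, chr11:106654218-106715281, 15 exons) the levels were 101, 92.3 and 77.2 CPM in Asxl2-/- replicates 1, 2 and 3 and 70.6, 91.8 and 66.0 CPM in wild-type replicates 1, 2 and 3, and the means were 6.46 ± 0.24 and 6.27 ± 0.15 log2 CPM (SD, n = 3 each). Its log2 fold change was 0.20 (95% interval -0.17 to 0.57, edgeR adjusted p = 0.427), with opposite signs in gene-count files (-0.05) and exon-count files (0.44).

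The VEGF receptors and VE-cadherin rested on few counts. For Kdr (NM_010612, chr5:75933270-75978428, 30 exons), Asxl2-/- replicates 1, 2 and 3 held 32, 33 and 12 counts and wild-type replicates 1, 2 and 3 held 60, 28 and 18, a log2 fold change of -0.31 (95% interval -1.77 to 1.15, edgeR adjusted p = 0.770). Flt1 (NM_010228, chr5:147562196-147725988, 30 exons) had 23, 56 and 16 counts in the Asxl2-/- libraries and 24, 76 and 71 in the wild-type libraries. Its highest level was 2.64 CPM in wild-type replicate 2, and its log2 fold change was -0.89 (95% interval -2.42 to 0.64, edgeR adjusted p = 0.387), or -1.94 in gene-count files and 0.13 in exon-count files. Cdh5 (NM_009868, chr8:104101625-104144502, 12 exons) had 27, 31 and 10 counts in the Asxl2-/- libraries and 24, 10 and 6 in the wild-type libraries, a log2 fold change of 0.94 (95% interval -0.66 to 2.54, edgeR adjusted p = 0.382). In all 3 genes the groups overlapped in CPM, and the libraries of a group differed by an SD of 0.67 to 1.02 on the log2 scale.

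**Figure D3:**
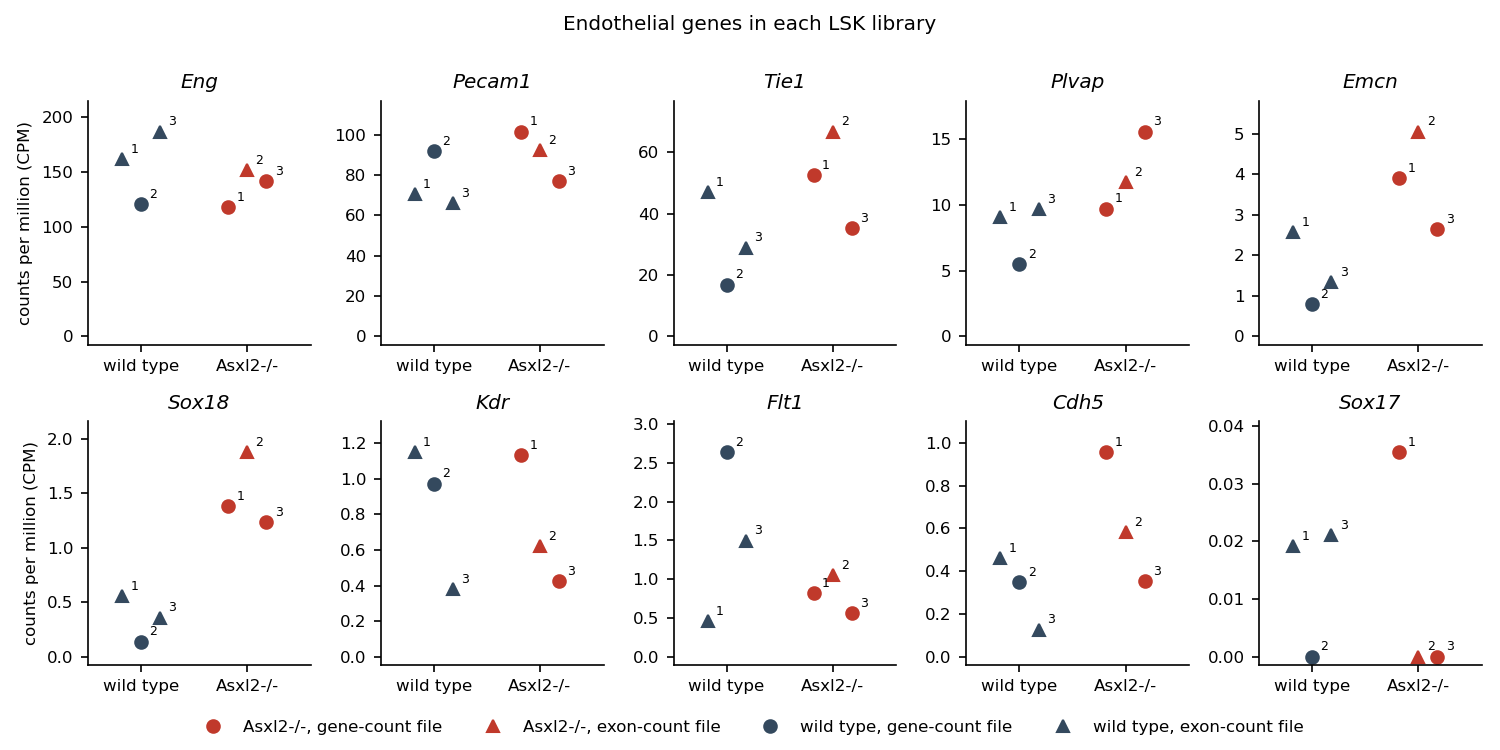
Level of each endothelial gene in CPM (y axis, 1 panel per gene, each from 0 with its own scale) in the 3 wild-type (blue) and 3 Asxl2-/- (red) libraries, numbered by replicate, circles for gene-count files and triangles for exon-count files. Sox18 lies at 1.23 to 1.88 CPM in the Asxl2-/- libraries and at 0.139 to 0.556 CPM in the wild-type libraries, Eng and Pecam1 overlap between groups, and Sox17 has at most 1 count in a library.

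Counted over the set, 0 of the 9 tested genes were raised and 0 lowered by edgeR, against 2.34% of all tested genes called in either direction (331 genes, 2.04% raised and 0.304% lowered). An unadjusted p under 0.05 with a higher Asxl2-/- level was found for 4 of the 9, against 15.0% of all tested genes. Every Asxl2-/- library was above every wild-type library of its own kind of file for 5 (Sox18, Emcn, Tie1, Plvap and Cdh5), against 25.4% of all tested genes, and every one was below for 0 of the 9, against 23.3%. In 3 (Sox18, Emcn and Plvap) all Asxl2-/- libraries were above all wild-type libraries in CPM, against 15.4%. The median log2 fold change was 0.75 over the 9 genes and 0.00052 over all tested genes. With DESeq2 in place of edgeR, 3 of the 9 were raised, against 8.35% of all tested genes: Tie1 (DESeq2 adjusted p = 0.00145), Sox18 (0.00172) and Emcn (0.00395). Plvap was not called there (0.0931). By edgeR without wild-type replicate 1, the same 3 genes as with DESeq2 passed, against 9.33% of all genes tested in that fit. Leaving out any other single library gave 0 of 9. The genes were chosen with earlier results of these data known, so these counts are descriptions.

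Wild-type replicate 2 had the lowest level of Tie1, Emcn, Plvap and Sox18 of all 6 libraries and the highest of Flt1. It was the only wild-type gene-count file, so within the wild type this cannot be told apart from the kind of file. Without wild-type replicate 2, as without each other library, the log2 fold changes of the first 4 stayed above 0, with ranges of 0.81 to 1.38 for Tie1, 1.36 to 2.03 for Emcn, 0.33 to 1.20 for Plvap and 2.03 to 3.20 for Sox18. The fit without wild-type replicate 2 compares the groups within exon-count files only, and that without Asxl2-/- replicate 2 within gene-count files only. Both nearly repeat the values of 1 kind of file given above and are not separate checks.

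The genes around these receptors and factors were then examined as 4 vascular lists. The lists held pathway partners, transcription factors, genes listed as endothelium-restricted, and genes that endothelium shares with blood stem cells or megakaryocytes. These lists were chosen with earlier results of these data known, so the counts are descriptions. Of their 58 tested genes, 5 were raised and 1 was lowered by edgeR, against 2.04% and 0.304% of all tested genes. Of 21 ligands, receptors and mediators of VEGF, angiopoietin and endoglin signalling, 15 were tested, with a median log2 fold change of 0.26. Vegfa, the ligand of Kdr and Flt1, was raised from 11.4, 14.8 and 12.3 CPM in wild-type replicates 1, 2 and 3 to 25.1, 21.3 and 24.5 CPM in Asxl2-/- replicates 1, 2 and 3 (edgeR adjusted p = 0.0279 for a log2 fold change of 0.79, SE 0.11). Bmpr2, a type II receptor that signals with endoglin, was raised from 20.1, 24.5 and 18.0 to 50.2, 30.2 and 46.3 CPM (0.82, SE 0.12, edgeR adjusted p = 0.0334). Nrp1, the VEGF co-receptor neuropilin 1, was lowered from 13.8, 47.2 and 18.2 to 7.95, 6.46 and 5.85 CPM (-2.04, SE 0.34, edgeR adjusted p = 0.0455). For all 3 genes the groups did not overlap. Tek, the angiopoietin receptor with which Tie1 pairs, was at 15.9, 14.6 and 10.5 CPM in Asxl2-/- replicates 1, 2 and 3 and at 11.9, 6.29 and 7.23 in wild-type replicates 1, 2 and 3, a log2 fold change of 0.83 that did not pass (edgeR adjusted p = 0.135). It was named after its values had been seen. The endoglin ligands Gdf2 (BMP9) and Bmp10 had 0 counts in all 6 libraries.

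Among 18 transcription factors of endothelium and blood, 14 were tested, 1 was raised and the median log2 fold change was 0.35. The one was Ets1, an ETS factor of endothelium and lymphocytes, at 37.2, 23.0 and 29.0 CPM in Asxl2-/- cells and 13.9, 14.0 and 9.98 CPM in wild-type cells, with no overlap (log2 fold change 1.09, SE 0.19, edgeR adjusted p = 0.0490). Of the 20 genes listed as endothelium-restricted, 12 were tested and none passed, with a median of 0.81, and 7 had at most 10 counts in every library. The smallest p-values there belonged to Robo4, a vessel guidance receptor (2.04, edgeR adjusted p = 0.0841), Myct1 (1.29, 0.103) and Rasip1, an effector of vessel lumen formation (1.24, 0.111). Of 18 genes that endothelium shares with blood stem cells or megakaryocytes, 17 were tested and 2 raised, with a median of 0.48. Vwf, the von Willebrand factor, was at 106, 306 and 81.8 CPM in Asxl2-/- replicates 1, 2 and 3 and at 62.1, 27.2 and 42.8 in wild-type replicates 1, 2 and 3 (edgeR adjusted p = 0.0190 for a log2 fold change of 2.17, SE 0.23). Selp, the adhesion receptor P-selectin, was at 94.3 to 105 CPM in Asxl2-/- cells and 41.5 to 58.5 in wild-type cells (1.07, SE 0.15, edgeR adjusted p = 0.0308). Vwf and P-selectin are also made by megakaryocytes.

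The calls of these 6 genes depended on which libraries were kept and on the scaling and covariate, although none of their directions turned. Without Asxl2-/- replicate 1 or wild-type replicate 3, 0 of the 6 passed (edgeR adjusted p from 0.0798 to 0.169 and from 0.0995 to 0.170). Vwf alone passed without Asxl2-/- replicate 3 and without wild-type replicate 2. Bmpr2, Nrp1, Vwf and Selp passed without Asxl2-/- replicate 2, and all 6 passed without wild-type replicate 1 (0.0277 to 0.0393). With all libraries, scaling by library size only ended the calls of Nrp1, Bmpr2, Ets1 and Selp (0.0553 to 0.0681), a fit without the kind of file those of Nrp1, Bmpr2 and Vwf (0.0511 to 0.0860), and taking 1 exon per gene, the longest, instead of the sum, that of Ets1 (0.0507). Without replicate 1 of both groups, chosen after seeing the data, 0 of the 6 passed (0.140 to 0.185).

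**Figure D4:**
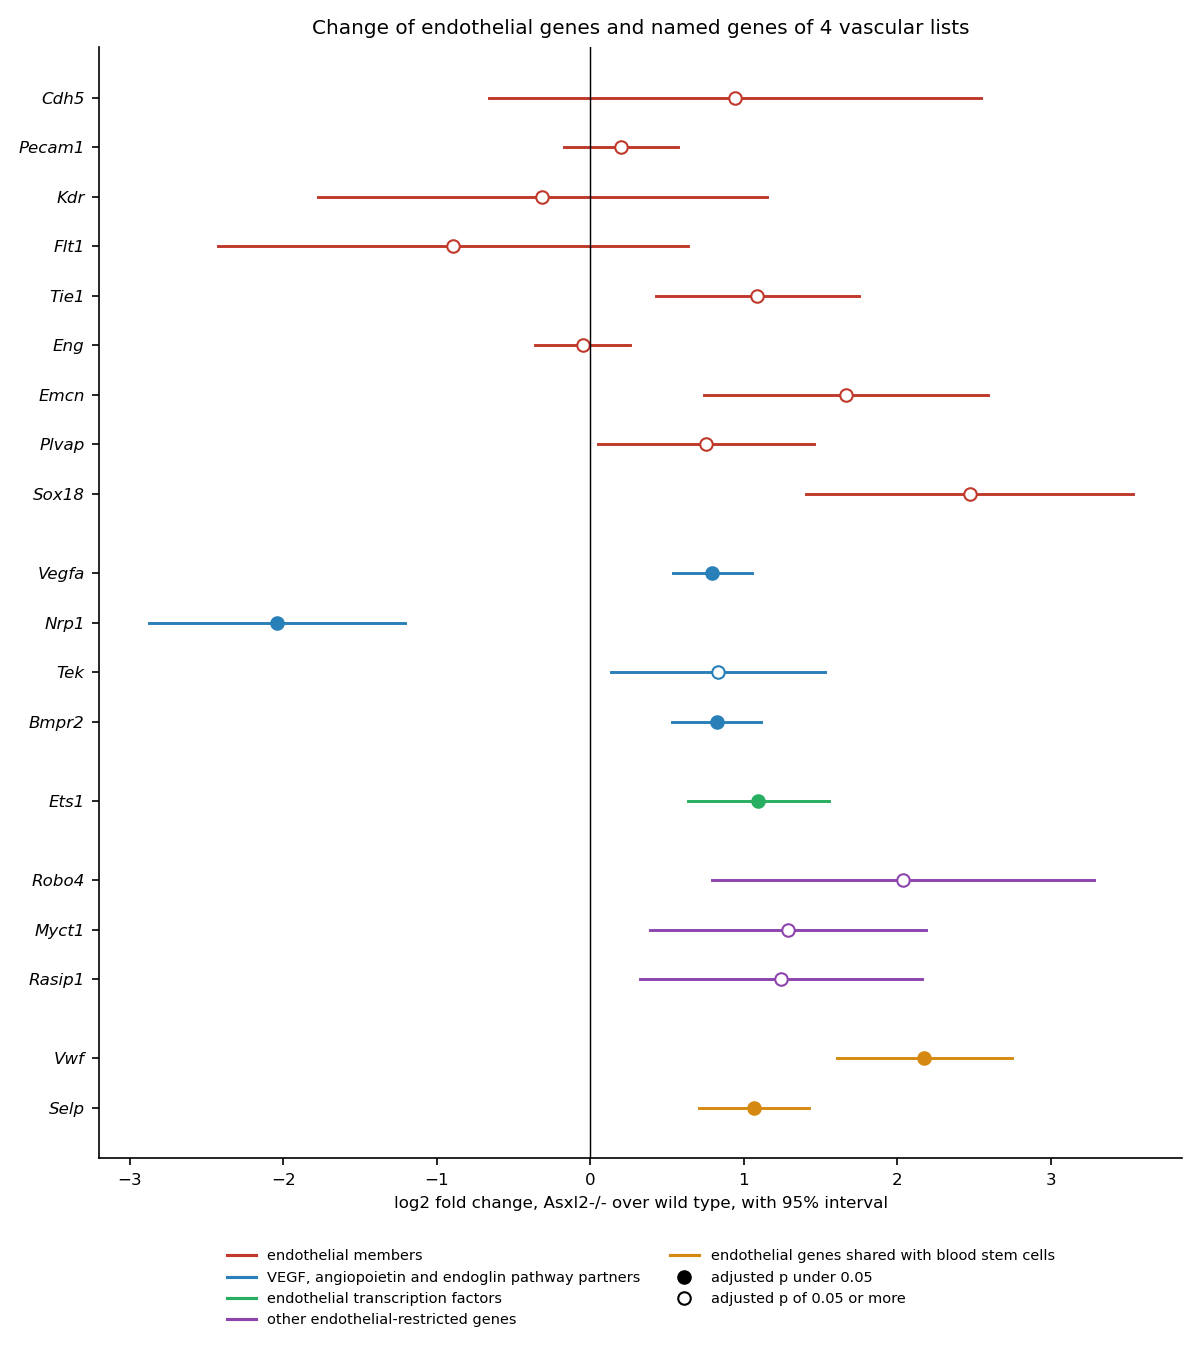
Log2 fold change of Asxl2-/- over wild type (x axis, points, with the 95% interval as bars) for the 9 tested endothelial genes and for the named genes of 4 vascular lists, in 1 colour per list, filled where the edgeR adjusted p is under 0.05. Sox18 (2.47), Emcn (1.66), Tie1 (1.09) and Plvap (0.75) have intervals above 0 with open points, while Vwf, Vegfa, Bmpr2, Selp, Ets1 and Nrp1 are filled.

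Markers of other cell types were summed in each library to set beside these values. For the counts of raised genes below, the share over all tested genes was 2.04% by edgeR. The B lineage had the largest median log2 fold change of the lists, 2.06, and 9 of its 10 genes were raised, with summed levels of 210.3 to 249 CPM in Asxl2-/- cells and 47.5 to 71.5 CPM in wild-type cells. Among them were Cd79a, Ebf1, Pax5, Vpreb1, Vpreb3, Igll1, Blnk and Rag1, which encode B cell receptor parts, its signalling adaptor and the factors and recombinase of early B cells, with log2 fold changes of 1.80 to 2.38. Of 12 blood stem cell genes 3 were raised, namely Slamf1 (1.52), which encodes the stem cell marker CD150, Ctnnal1 (1.71) and the cell cycle inhibitor Cdkn1c (2.96), with sums of 347 to 399 CPM against 153 to 259. Of 10 megakaryocyte genes 4 were raised, among them the platelet chemokines Pf4 (2.03) and Ppbp (2.72) and the platelet glycoprotein Gp5 (0.72), with sums of 404 to 694 CPM against 285 to 478. The sum of 694 CPM was that of Asxl2-/- replicate 2, and replicates 1 (410) and 3 (404) were below wild-type replicate 1 (478). Pf4 was at 49.1, 146 and 32.4 CPM in Asxl2-/- replicates 1, 2 and 3 and at 37.7 in wild-type replicate 1, so the groups overlapped. Of the 10 genes 9 had a fold change above 0, and Gata1 was at -0.54 (edgeR adjusted p = 0.171). Of the 17 genes past the threshold in these 3 lists and the mural list below, 0 passed without Asxl2-/- replicate 1 or without wild-type replicate 3, 3 without Asxl2-/- replicate 3, 5 without wild-type replicate 2, 12 without Asxl2-/- replicate 2 and 16 without wild-type replicate 1, with no direction turned.

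Marrow stroma, the sheath and fibroblast cells around the vessels, had none of 11 tested genes past the threshold and a median log2 fold change of 1.14, with sums of 147 to 323 CPM in Asxl2-/- cells and 48.5 to 206 in wild-type cells. Its genes with the smallest p-values were Cxcl12 (1.39), Pdgfrb (0.50) and Col3a1 (1.73). Most of the stroma sums came from Col1a1, Col1a2 and Pdgfrb, named here after their values had been seen. The log2 fold changes of Col1a1 and Col1a2 were 2.76 and 2.58 in gene-count files but -0.17 and -0.25 in exon-count files. Of 8 mural cell genes only Notch3 (2.24, edgeR adjusted p = 0.0279) and Tagln (0.20, 63 to 88 counts per library) could be tested. The rest had 0 to 3 counts (Rgs5, Cspg4 and Des), 0 to 10 (Acta2), 1 to 8 (Myh11) and 1 to 11 (Cnn1). Apart from Notch3, these genes were named after their values had been seen. Brain endothelium (5 tested, sums of 215 to 254 against 254 to 297 CPM, led by Mfsd2a, Slc7a5 and Slc2a1), macrophages (9 tested, 28.7 to 62.7 against 36.0 to 113, Cd68, Fcgr1 and Siglec1), neurons (8 tested, 5.36 to 21.1 against 18.3 to 59.7, Tubb3, Slc17a7 and Stmn2) and glia (9 tested, 158 to 323 against 191 to 243, Cnp, Mbp and Mag) had no gene past the threshold. At 55.5 and 53.4 CPM, Tubb3 held most of the neuron sums of wild-type replicates 2 and 3. It was at 7.85 CPM in wild-type replicate 1 and at 1.35 to 4.90 CPM in Asxl2-/- cells (log2 fold change -3.83). Of the 8 tested neuron genes 4 had a fold change above 0, with a median log2 fold change of -0.0078. Mbp (83.7 to 144 CPM) and Cnp (65.5 to 99.6 CPM), the myelin genes that make up most of the glial sums, varied less between libraries than other glial genes named here after their values had been seen. Gfap, the filament protein of astrocytes, was at 28.6, 2.74 and 9.84 CPM in Asxl2-/- replicates 1, 2 and 3 and at 23.8, 1.42 and 9.72 CPM in wild-type replicates 1, 2 and 3. The glutamate transporter Slc1a2 was likewise highest in replicate 1 of both groups, at 26.9 and 12.0 CPM, and lowest in replicate 2 of both, at 1.62 and 1.42 CPM. Without replicate 1 of both groups, an alternative chosen after seeing the data, the log2 fold changes were 2.68 for Sox18, 1.82 for Emcn, 1.14 for Tie1 and 0.88 for Plvap, with edgeR adjusted p-values of 0.171, 0.169, 0.140 and 0.311. Across lists, wild-type replicate 2, the only wild-type gene-count file, was lowest for Tie1, Emcn, Plvap and Sox18. It was also lowest for the sums of the genes listed as endothelium-restricted (151 CPM), stroma (48.5 CPM), stem cell (153 CPM) and megakaryocyte (285 CPM). In this library Eltd1 alone held 131 of the 151 CPM. Col1a2 (18.4), Pdgfrb (14.4) and Col1a1 (14.2) held most of the 48.5 CPM. The part of these cell types in the levels of the 10 genes was not tested. Lists overlapped in 3 genes, and none of the 10 endothelial genes was in another list.

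**Figure D5:**
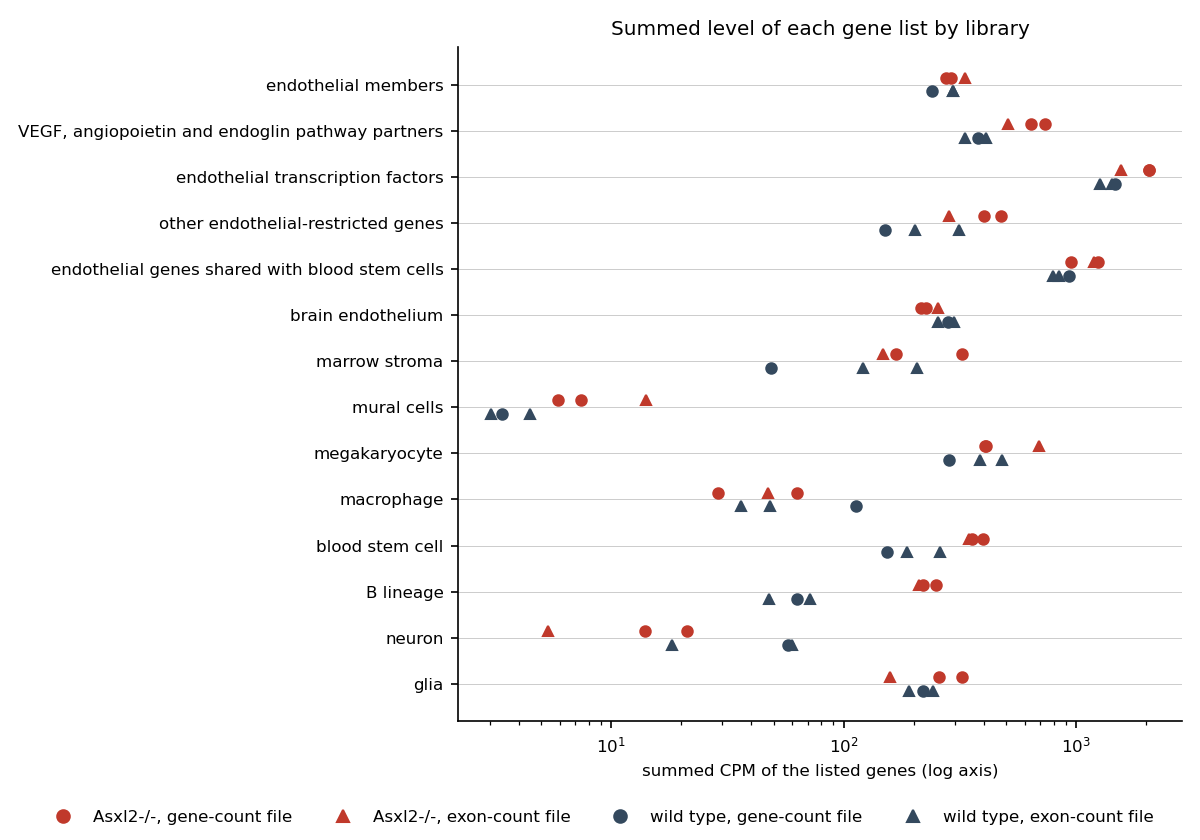
Summed CPM of the genes of each list (x axis, log scale) in the 3 Asxl2-/- (red) and 3 wild-type (blue) libraries, circles for gene-count files and triangles for exon-count files. The B lineage and blood stem cell sums do not overlap between groups, the sum of the 10 endothelial genes does (275 to 332 CPM against 240 to 295), and wild-type replicate 2 is lowest for the stroma. Eng and Pecam1, for which no difference was detected, hold most of the endothelial sum in each library.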

How the data were processed

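RNA was poly(A)-selected from sorted LSK cells for 3 Asxl2-/- and 3 wild-type libraries and sequenced without strand information. The deposited values were raw counts, which the authors made on mm10 with RefSeq transcripts. The submitters' processing notes name STAR, featureCounts and DESeq2 without roles or versions. Each of 24063 symbols was represented by its longest transcript (ties by lowest accession), and exon counts were summed. The study tested with Cuffdiff, which needs aligned reads and was not used here. Counts were tested with edgeR 4.0.16 in R 4.3.3 (glmQLFTest, TMM, filterByExpr, kind of file plus group, 3 residual degrees of freedom), two-sided, with Benjamini-Hochberg adjustment over 14145 genes and a threshold of 0.05. The pipeline was tested on simulated data. P-values set the difference between the groups against the spread of these libraries within the groups, which edgeR moderates across genes. Standard errors come from the fold change and its F statistic, and group means are log2 CPM with the kind of file removed, which makes their SDs slightly small. Fold changes within 1 kind of file rest on 3 libraries and carry no test.

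The 10 genes, the 13 marker lists and the tests were chosen with earlier results of these data known. Named were all 10 genes and, from each list, every gene past the threshold or otherwise the 3 with the smallest p-values. Some genes that this rule takes are not reported here. Tek was added afterwards. Promoters were taken from RefSeq (GRCm38.p6). The alternatives were DESeq2 1.42.0, limma-voom (limma 3.58.1), other scalings, filters, covariates, transcripts and exon summaries, a length offset, genes outside X and Y, each kind of file alone, a replicate block and leaving out libraries. Intervals of shares were computed with scipy 1.17.1 in Python 3.11.15.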

Additional observations from a re-analysis of the deposited data

How the results depend on the processing

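Of the 9 tested endothelial genes, Sox18, Emcn, Tie1, Plvap and Cdh5 kept a higher Asxl2-/- level in every alternative that could test them, with log2 fold changes of 2.03 to 3.20, 1.28 to 2.03, 0.73 to 1.38, 0.33 to 1.20 and 0.60 to 1.44. The number past the threshold, 0 by edgeR, was 3 with DESeq2 (Tie1, Emcn and Sox18), 1 with limma-voom and 1 without a low-count filter (Sox18 both times), and 0 to 3 when 1 library was left out. Of all genes tested, 16.5% passed with DESeq2, 3.04% with limma-voom and 1.77% without a low-count filter. Over all genes the count of 331 became 2329 with DESeq2 (1181 raised and 1148 lowered), 161 with library size only, and 9 to 1312 when 1 library was left out. It was 9 without wild-type replicate 3, 16 without Asxl2-/- replicate 1, 96 without Asxl2-/- replicate 3, 124 without wild-type replicate 2, 659 without Asxl2-/- replicate 2 and 1312 without wild-type replicate 1. In an alternative chosen after seeing the data, without the library with the most Gfap counts in each group (replicate 1 of both), 0 genes passed and 1 residual degree of freedom was left, with 2629 genes and 3 of the endothelial genes at an unadjusted p under 0.05, against 3912 and 4 of the full data. The cause of these changes was not tested beyond the smaller number of samples.

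A replicate block beside the kind of file left 1 residual degree of freedom and called 5 endothelial genes (Flt1 lowered, Tie1, Emcn, Plvap and Sox18 raised) and 5179 genes in all, 36.6% of those tested. With this block and no kind of file the counts were 0 and 380. Libraries with the same number shared deviations with correlations of 0.29, -0.0077 and -0.0028 for replicates 1, 2 and 3. With the kind of file removed the correlations were 0.64, 1 and 0.39. Each such pair holds a gene-count and an exon-count file, which affects the first set. In the second set the fit itself ties the deviations together and fixes that of replicate 2. Neither set can therefore decide whether the numbers pair the libraries.

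Signs turned for genes that did not pass the threshold. Eng was at 0.0502 with library size only and 0.0897 in the gene-count files alone (-0.19 to 0.10 leaving out 1 library), and Pecam1 at -0.0536 in the gene-count files (-0.0400 to 0.438). Flt1 was at 0.13 in the exon-count files (-1.93 to 0.12), and Kdr ranged from -0.67 to 0.11 leaving out 1 library. In the gene-count files Slc2a1 was at -0.11 (-0.0932 to 0.590), Stmn2 at 1.74 (-3.29 to 1.76), Mag at 1.00 (-3.30 to 1.02) and Ptprc at -0.14 (-0.13 to 0.22). Ptprc was also at -0.00433 by DESeq2 and at -0.00452 under median-ratio scaling. A length offset put Ptprc at -0.0898, Mbp at -0.0118 and Asxl2 at -0.0541. In the exon-count files Mbp was at -0.11 (-0.11 to 0.33) and Kit at -0.13 (-0.13 to 0.59). Cdh5, Kdr and Flt1 rest on 6 to 76 counts per library and Sox17 on 0 or 1, and the part of depth in their values was not tested. With the replicate block and no kind of file, Vegfa, Nrp1, Bmpr2 and Vwf no longer passed by edgeR, with adjusted p from 0.0617 upward.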
